A study of Mus musculus with 4 samples.

Results

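RNA-binding splicing regulators of the Srsf, Hnrnp and Rbm families were examined in mouse macrophages polarized to an M1 or an M2 state. Members were all protein-coding genes of the count table whose gene ID carried a mouse symbol starting with Srsf or Rbm and a digit, or with Hnrnp. They numbered 70 of 49315 genes, with 11 Srsf, 20 Hnrnp and 39 Rbm genes. Symbols of 77 genes fitted the pattern, and the 7 others were pseudogenes or non-coding transcripts. Pseudogenes named after Hnrnpa1, Rbm3 and Rbm6 are among these, and how reads that fit several genes were counted is not stated, so levels of these members are less certain.

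SR proteins, encoded by the Srsf genes, bind exonic enhancers through RNA recognition motifs and recruit spliceosome components through a domain rich in arginine and serine, whose phosphorylation sets their location and activity. Heterogeneous nuclear ribonucleoproteins, encoded by the Hnrnp genes, coat nascent transcripts and often counteract SR proteins at splice sites, and several also act in RNA export, stability and translation. Rbm is a naming class for genes with an RNA-binding motif rather than one lineage: some Rbm proteins belong to the spliceosome, others direct RNA methylation or editing, ribosome production or nuclear RNA decay. In macrophages, alternative splicing and transcript stability are known to shape the cytokine response to bacterial products.

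Macrophages were grown from bone marrow of Lyz2Cre+ mice, which express Cre recombinase from the myeloid lysozyme 2 gene, in medium with L-cell supernatant as a source of growth factor. On day 7 of culture, M1 cells received LPS at 100 ng/ml with IFNg at 50 ng/ml, and M2 cells received IL-4 at 10 ng/ml with IL-13 at 10 ng/ml, each for 24 hours in serum-free medium. Each state had 2 poly(A) RNA libraries, both states carried the Lyz2Cre allele, and no unpolarized library was analysed here. Some cultures of the study also received the EGFR inhibitor erlotinib; for the 4 libraries used here its use is not stated. The comparison asks how steady-state RNA levels differ between the polarized states. Since no label ties a library to its own animal or culture, the p-values reflect the variation among these 4 libraries, which may be technical.

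The M1 libraries held 34445668 and 28407982 counts on genes, and the M2 libraries 26806370 and 39506242. The labels were met by the stimulus genes: all 10 M1 genes listed, with Nos2 and Il6 among them, were higher in M1, and all 10 M2 genes listed, with Mrc1 and Chil3 among them, were lower in M1. Nos2, the inducible nitric oxide synthase, had 8030.3 and 7253 counts per 1000000 (CPM) in the M1 libraries, against 10.6 and 9.65 CPM in the M2 libraries. Mrc1, the macrophage mannose receptor, had 2.88 and 2.03 CPM in M1 and 1057 and 1011 CPM in M2. Of 8 macrophage markers 6 were higher and 2, Csf1r and Cd68, were lower in M1, and their summed level was 5434 to 5673 CPM in M1 and 4619 to 4729 CPM in M2. Of 6 stromal markers 4 were lower and 2 higher in M1, and their summed levels were 110.5 to 119 CPM in M1 and 1137 to 1162 CPM in M2, and for dendritic cell markers, 4 higher and 1 lower of 5 tested, they were 458 to 479 CPM in M1 and 3.67 to 4.53 CPM in M2. Summed levels of the other lists were low, at 9.47 to 10.5 CPM in M1 and 12.3 to 15.8 CPM in M2 for neutrophil genes and 7.07 to 7.68 CPM in M1 and 1.21 to 1.43 CPM in M2 for mast cell and basophil genes, of which Ms4a2 was at 0. T cell, B cell and erythroid lists summed to 2.02 to 2.85 CPM in M1 and 1.26 to 3.54 CPM in M2. Their part in the results on splicing regulators was not tested, and in these bulk cultures a change in cell makeup and a change in RNA per cell cannot be told apart.

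The scaling between libraries set the direction of many members, so results are given with TMM and with total-count scaling. TMM scaling, which assumes that most genes do not differ, used factors of 0.846 and 0.866 for the M1 libraries and 1.17 and 1.17 for the M2 libraries. Total-count scaling sets library totals equal, and it moved the median log2 fold change of all 14656 tested genes by -0.45 on the log2 scale, with medians of -0.04 under TMM and -0.48 under total counts. CPM values below are TMM-normalized, fold changes are log2 of M1 over M2 with their standard error (SE), and "higher" or "lower" means an adjusted p under 0.05 from edgeR's quasi-likelihood test with Benjamini-Hochberg adjustment over all tested genes.

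With TMM scaling, 34 of the 63 tested members were higher and 12 were lower in M1, and 17 were not called. The background was broad: 77.2% of all tested genes were called, 37.5% higher and 39.7% lower, beside 73.0%, 54.0% and 19.0% of members. With total-count scaling, 9 members were higher and 31 lower, where 81.3% of all genes were called, 22.8% higher and 58.5% lower. Of members 63.5% were called with total counts, 14.3% higher and 49.2% lower. Of the 8286 tested protein-coding genes averaging at least 10 CPM, 82.2% were called with TMM, 45.7% higher and 36.5% lower. With total counts 85.8% of them were called, 25.4% higher and 60.3% lower. The share of members called was near that of all genes under TMM but below that of these expressed coding genes. Under total counts it was below both, and the split by direction turned with the scaling.

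Called under both scalings in the higher direction were 9 members, Rbm11, Rbm3, Rbm12b2, Rbm28, Rbm15, Rbm5, Hnrnph2, Hnrnpdl and Srsf11. Rbm11 was tested only through its M1 counts. All 12 members lower with TMM were also lower with total counts, namely Srsf9, Hnrnpr, Hnrnpc, Hnrnpll, Hnrnpa0, Hnrnpf, Hnrnph1, Hnrnpu, Rbm12b1, Rbm12, Rbm47 and Rbm19. Total-count scaling moved genes down by a common step, so agreement in this direction was close to fixed. All 5817 tested genes lower with TMM were lower with total counts too. Another 4 members, Rbm18, Hnrnpd, Srsf10 and Srsf5, were higher with TMM and lower with total counts. The remaining 21 that were higher with TMM were not called with total counts, and 15 of the 17 not called with TMM were lower with total counts.

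**Figure D1:**
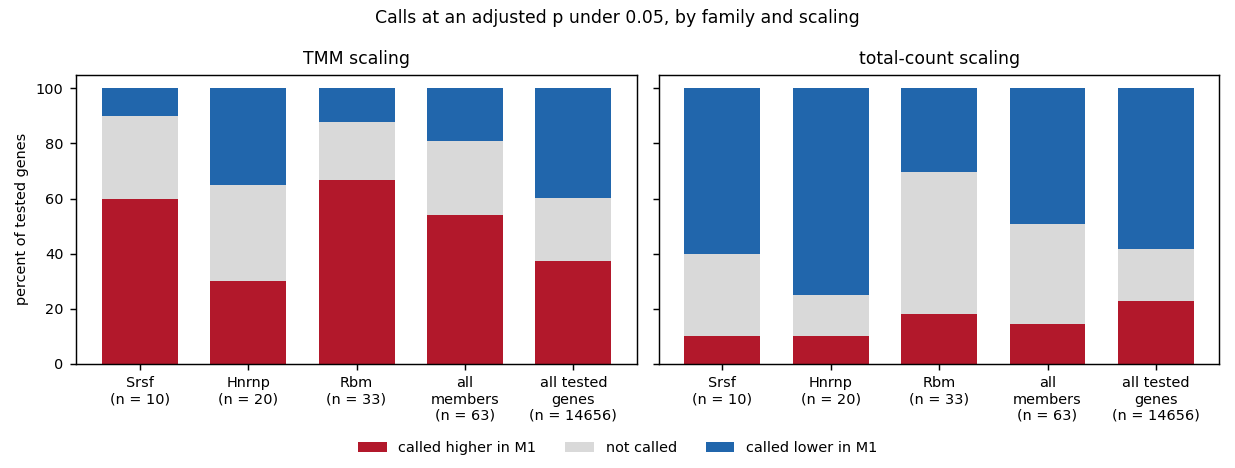
Bars give the percent of tested genes called higher in M1 (red), not called (grey) or lower in M1 (blue) for each family, all members and all tested genes, with TMM scaling on the left and total-count scaling on the right. With TMM 22 of 33 Rbm genes were higher and 4 lower, and 6 of 20 Hnrnp genes were higher and 7 lower. With total counts 6 Rbm genes were higher and 10 lower, and 2 Hnrnp genes were higher and 15 lower. Of all tested genes 37.5% were higher and 39.7% lower with TMM, and 22.8% and 58.5% with total counts. Rbm11 and Rbm42, among the 22, were tested only through their M1 counts.

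The median log2 fold change was 0.48 for Rbm, 0.20 for Srsf and -0.09 for Hnrnp with TMM, and 0.04, -0.24 and -0.54 with total counts. Relative to the median of all tested genes, 28 of 33 Rbm, 9 of 10 Srsf and 8 of 20 Hnrnp genes lay above it with TMM. Of the tested protein-coding genes of at least 10 CPM, 56.5% lay above it. Changes with TMM were small beside those of other genes: the median absolute log2 fold change was 0.43 for members and 0.76 for all tested genes, or 0.57 for the 8286 tested protein-coding genes of at least 10 CPM. Rbm11 and Rbm42 met the low-count filter only through the M1 libraries, where they were higher. With TMM, Rbm11, Rbm42, Rbm3 and Rbm12b1 passed an absolute log2 fold change of 1, which is 6.35% of tested members against 41.0% of all tested genes. With total counts Rbm42 (0.87) and Rbm3 (0.61) did not pass it, and Srsf9 (-1.05), Hnrnpr (-1.18), Hnrnpc (-1.05), Hnrnpll (-1.05) and Rbm12 (-1.30) did. The 2 libraries of M1 did not overlap with the 2 of M2 for 55 of 63 members, or 87.3%, beside 88.5% of all tested genes.

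**Figure D2:**
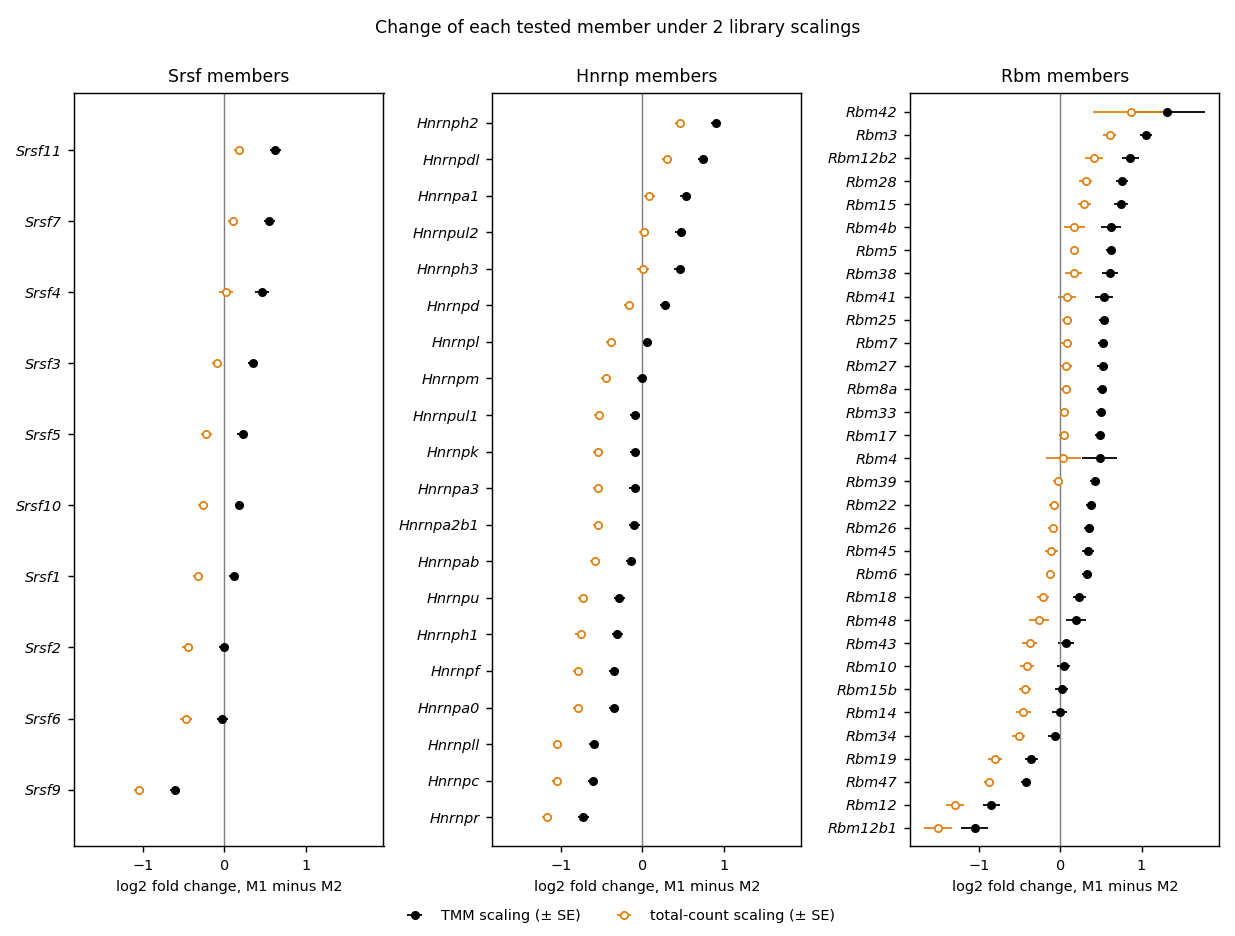
Each row is 1 tested member, with its log2 fold change of M1 over M2 (x axis) under TMM scaling (filled) and total-count scaling (open); lines are ± 1 SE, and Rbm11 at 4.51 is left out. Every member lies further left under total counts by about the same step, and the families run from Srsf11, Hnrnph2 and Rbm42 at the top to Srsf9, Hnrnpr and Rbm12b1 at the bottom.

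Summed as a share of each library's counts, which is the total-count view and needs no scaling factor, the families differed. All 70 members together took 0.711% and 0.746% of counts in the M1 libraries, against 0.900% and 0.919% in the M2 libraries. Hnrnp genes took 0.405% and 0.417% in M1 and 0.563% and 0.572% in M2. Srsf genes took 0.132% and 0.144% in M1 and 0.161% and 0.167% in M2. Both families held a smaller share in each M1 library than in each M2 library. Rbm genes took 0.174% and 0.185% in M1 and 0.176% and 0.180% in M2, where the groups overlapped. The difference of Rbm means turned negative without M1 replicate 2, at -0.0038 percentage points, and without M2 replicate 1, at -0.00012. With 2 libraries per state an exact permutation test cannot give a two-sided p under 0.333, so no test is given for these shares. Summed TMM-normalized levels ran otherwise: all members had 8401 and 8616 CPM in M1 and 7699 and 7873 CPM in M2, Srsf genes 1555 and 1659 CPM in M1 and 1374 and 1432 CPM in M2, and Rbm genes 2060.0 and 2139 CPM in M1 and 1508 and 1542 CPM in M2. For these 3 sums each M1 library lay above each M2 library, while Hnrnp genes, at 4785 and 4819 CPM in M1 and 4816 and 4899 CPM in M2, overlapped.

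**Figure D3:**
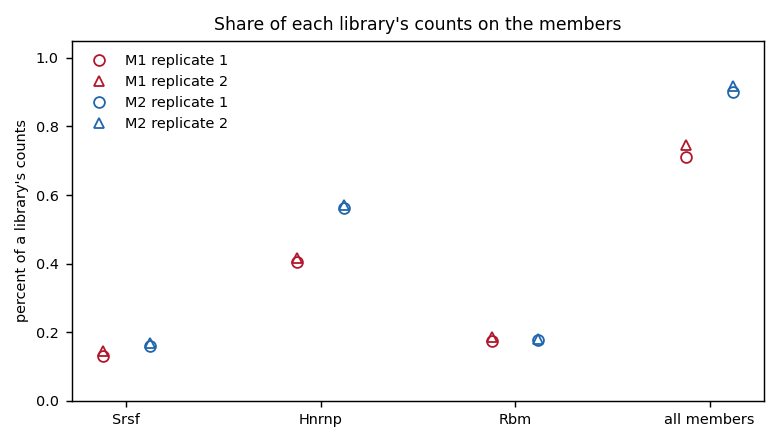
Points give the percent of each library's counts (y axis) on Srsf, Hnrnp, Rbm and all member genes, with M1 in red left of M2 in blue, and circles and triangles for replicates 1 and 2. The M1 points lie below the M2 points for Srsf, Hnrnp and all members, and on either side of the M2 points for Rbm.

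Per length of exon, levels can be set between genes as transcripts per 1000000 (TPM) computed from the counts and summed exon length, which follow total-count scaling between libraries. Hnrnpa2b1, a core protein of the ribonucleoprotein particle, was the most abundant member, at 273 and 272 TPM in the M1 libraries and 406 and 418 TPM in the M2 libraries. Hnrnpab followed at 254 and 266 TPM in M1 and 400.5 and 408 TPM in M2. Among SR proteins Srsf5 led with 235 and 252 TPM in M1 and 287 and 301 TPM in M2. The leading Rbm gene of M1 was Rbm3, at 158 and 172 TPM in M1, and that of M2 was Rbm39, a partner of the U2AF splice-site factor, at 142 and 141 TPM in M2.

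SR proteins came as 8 classical members and 3 others. Among the 10 tested, 6 were higher and 1 was lower in M1 with TMM, against 1 higher and 6 lower with total counts. The background of all tested genes was 37.5% higher and 39.7% lower with TMM, and 22.8% and 58.5% with total counts. The share of tested Srsf genes lower with total counts was thus near that of all tested genes. Without M1 replicate 2, the count of lower Srsf genes with TMM was 2. Srsf11, an SR-group protein known to contact the U2AF splice-site factor, had 208 and 227 CPM in M1 and 137 and 145 CPM in M2. Both M1 libraries lay above both M2 libraries, by 0.63 ± 0.07 log2 units (edgeR adjusted p 4.78e-07), and by 0.18 with total counts, where Srsf11 was the one SR gene still called higher. Srsf7, an SR protein with a zinc knuckle, had 100.4 and 110.4 CPM in M1 and 69.9 and 73.6 CPM in M2 (0.55 ± 0.07; 0.11 and not called with total counts). Srsf4, a long SR protein, had 22.2 and 19.9 CPM in M1 and 15.1 and 15.5 CPM in M2, a log2 fold change of 0.46 ± 0.09 that was 0.01 with total counts. Of its exon length 43.0% is shared with a transcript on the opposite strand, Gm12992, and libraries without strand cannot separate the pair. Srsf3, the smallest SR protein and a link to RNA export, had 209 and 213 CPM in M1 and 163 and 168 CPM in M2, and its log2 fold change of 0.35 ± 0.06 was -0.10 and not called with total counts.

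Srsf9 was the one SR gene called lower in M1 with TMM. The gene (ENSMUSG00000029538, chr5:115327177-115333080, plus strand, GRCm38) encodes a small SR protein close to Srsf1 and had 59.2 and 59.5 CPM in the M1 libraries, against 89.7 and 91.0 CPM in the M2 libraries. All M1 values were below all M2 values, with a log2 fold change of -0.61 ± 0.06 (edgeR adjusted p 1.91e-07) and -1.05 with total counts. Srsf1, the founding SR protein, had 163 and 164 CPM in M1 and 149 and 153 CPM in M2 (0.12 ± 0.06, not called with TMM, and -0.33, lower, with total counts). Srsf2, which marks nuclear speckles, and Srsf6 had log2 fold changes of -0.0047 ± 0.07 and -0.03 ± 0.07, and their TMM-normalized libraries overlapped between states; with total counts both were lower, at -0.45 and -0.47. Srsf5 and Srsf10, the second known as a splicing repressor after heat shock, changed sign with the scaling: 0.22 and 0.18 with TMM, and -0.22 and -0.26 with total counts. Srsf12 had no count in any library, which allows up to 0.0759 to 0.112 CPM of library totals at a limit of 3 counts, for counting error only.

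Hnrnp genes were all tested, and with TMM 6 were higher, 7 lower and 7 not called in M1. Their shares higher and lower, 30.0% and 35.0%, were near the 37.5% and 39.7% of all tested genes. Within the F and H types, which bind runs of guanines, close relatives parted. Hnrnph2 (ENSMUSG00000045427, chrX:134601179-134607060, plus strand, GRCm38) had 223 and 212 CPM in M1 and 114 and 117 CPM in M2. Its M1 values were all above its M2 values, by 0.91 ± 0.06 log2 units (edgeR adjusted p 2.56e-09) with TMM and by 0.46 with total counts. Hnrnph1 had 198 and 220.1 CPM in M1 and 255 and 263 CPM in M2, lower by both scalings (-0.31 ± 0.07 and -0.76). Hnrnpf, the third of this type, was lower (-0.35 ± 0.06), and Hnrnph3 was higher with TMM alone (0.46 ± 0.07).

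A/B and D types count 7 genes. Hnrnpdl, an AU-rich element binder like its relative Hnrnpd, had 231 and 239 CPM in M1 and 140.4 and 140.1 CPM in M2, and was higher with TMM (0.75 ± 0.06, edgeR adjusted p 2.23e-08) and with total counts (0.30). Hnrnpa1, a well-known silencer of exons, had 263 and 301 CPM in M1 and 194 and 195 CPM in M2, higher with TMM (0.53 ± 0.07) and not called with total counts (0.09). The M1 libraries lay above the M2 libraries for both genes. Hnrnpa0, a substrate of the p38 pathway kinase MK2 that binds cytokine mRNAs, had 155 and 156 CPM in M1 and 199.8 and 196 CPM in M2 and was lower under both scalings (-0.35 ± 0.06 and -0.80). Hnrnpa2b1, Hnrnpa3 and Hnrnpab had log2 fold changes of -0.10, -0.09 and -0.14, none called with TMM and all lower with total counts. Hnrnpd, also known as AUF1, had 0.28 with TMM and -0.17 with total counts, called in opposite directions.

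The 4 Hnrnp genes with the largest falls were Hnrnpr, Hnrnpc, Hnrnpll and Hnrnpa0. Hnrnpr, a relative of Syncrip, had 39.9 and 42.1 CPM in M1 and 66.4 and 69.2 CPM in M2, a log2 fold change of -0.73 ± 0.06 (edgeR adjusted p 6.05e-08) and of -1.18 with total counts. Hnrnpc, which binds uridine tracts and packages nascent RNA, had 123 and 127 CPM in M1 and 189 and 190.3 CPM in M2 (-0.60 ± 0.06 and -1.05). Hnrnpll, known as a switch of CD45 splicing in lymphocytes, had 58.2 and 59.8 CPM in M1 and 88.5 and 90.2 CPM in M2 (-0.60 ± 0.06 and -1.05). For each, both M1 libraries lay below both M2 libraries. Its relative Hnrnpl had 0.06 ± 0.06 with TMM, not called, and -0.39 with total counts, called lower. Hnrnpu, a nuclear matrix and chromatin protein, was lower (-0.28 ± 0.06), whereas Hnrnpul2 of the same type had 352 and 329.6 CPM in M1 and 245 and 247 CPM in M2, higher with TMM (0.47 ± 0.06) and at 0.02 with total counts. Hnrnpk, Hnrnpm and Hnrnpul1 lay at -0.09, -0.0031 and -0.09, none called with TMM, and all lower with total counts (-0.54, -0.45 and -0.54).

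**Figure D4:**
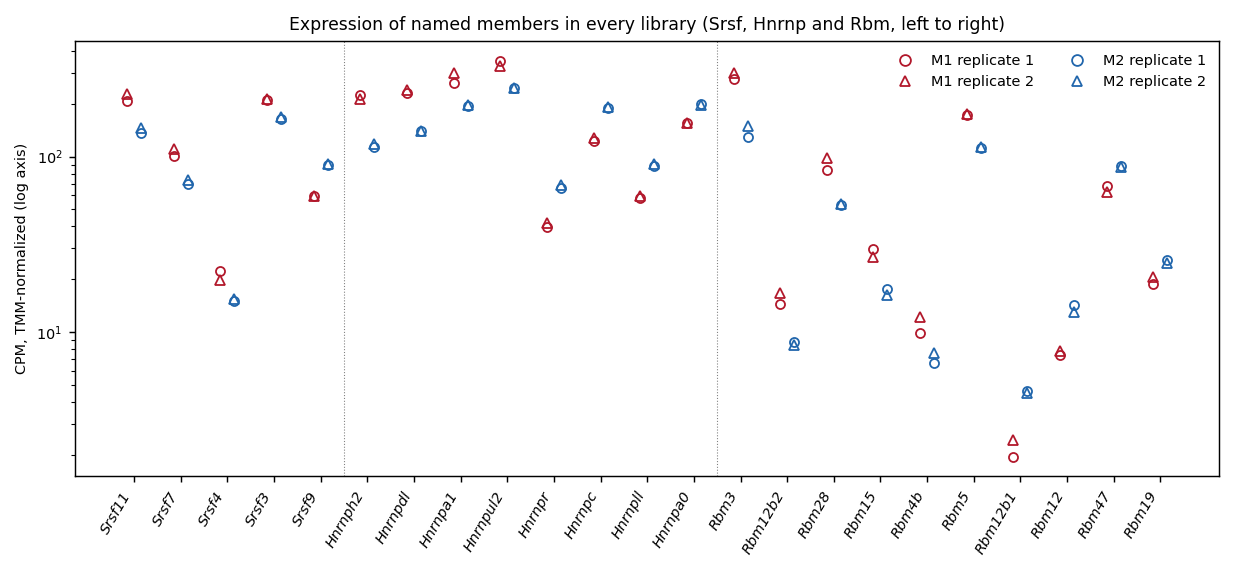
Points give TMM-normalized CPM on a log axis for the 23 named members in every library, M1 in red left of M2 in blue, with circles and triangles for replicates 1 and 2. The genes were picked for large called changes, so the lack of overlap between states for every gene shown follows from the choice. Of all tested genes 88.5% do not overlap either. Rbm3, at 275 and 301 CPM in M1 and 129 and 148 CPM in M2, has one of the widest gaps among the abundant genes.

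Of 16 tested Rbm genes of the spliceosome and splice-site regulation, 12 were higher and none was lower in M1 with TMM. Among the 12 are Rbm11 and Rbm42, which met the low-count filter only through the M1 libraries. With total counts 2, Rbm5 and Rbm11, were higher and 2 were lower. Of all tested genes 37.5% were higher and 39.7% lower with TMM, and 22.8% and 58.5% with total counts. Rbm5, a component of early spliceosomes known for its part in splicing of death receptor RNA, had 171 and 175 CPM in M1 and 112 and 114 CPM in M2. It was higher with TMM (0.62 ± 0.06, edgeR adjusted p 1.63e-07) and with total counts (0.17). Its relatives Rbm6 and Rbm10 had log2 fold changes of 0.33 ± 0.06, higher with TMM alone, and 0.04 ± 0.08, not called with TMM and lower with total counts (-0.41). Rbm25, which acts with U1 at 5′ splice sites, Rbm17, a splicing factor of the U2 step, Rbm39 and Rbm22, a protein of the catalytic core, had 0.53, 0.49, 0.42 and 0.37 with TMM, all called higher. With total counts the same genes lay between -0.07 and 0.09 and none was called. Rbm8a, the Y14 subunit of the exon junction complex, had 79.2 and 81.8 CPM in M1 and 55.1 and 57.6 CPM in M2 (0.51 ± 0.06; 0.07 and not called with total counts).

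Rbm4b, an alternative splicing regulator, had 9.91 and 12.2 CPM in M1 and 6.67 and 7.57 CPM in M2, higher with TMM (0.62 ± 0.12) and not called with total counts (0.17). Rbm38, a p53 target, and Rbm41, linked to the minor spliceosome, were higher with TMM (0.61 ± 0.10 and 0.54 ± 0.11), and Rbm48, also of the minor spliceosome, was not called with TMM (0.19 ± 0.12) or with total counts (-0.26). The largest ratio of any member was that of Rbm11, a tissue-restricted regulator of splicing, which had 17 and 19 counts in the M1 libraries, against 2 and 0 in the M2 libraries. Its TMM-scaled ratio of M1 to M2 was 25.9, with an exact 95% interval of 6.68 to 222 for counting error. Rbm42 had 12 and 16 counts in M1 and 8 and 8 in M2, a TMM-scaled ratio of 2.52 with an interval of 1.32 to 4.99 for counting error. With total counts its log2 fold change was 0.87 and it was not called. Of the exon length of Rbm42 75.4% is shared with Gm21982. Rbm11 and Rbm42 passed the low-count filter through the M1 libraries alone, so their being tested depended on the higher state.

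Other Rbm genes, some of the spliceosome and splice-site group and some given no role here, had mixed changes. Rbm33 and Rbm45 were higher with TMM (0.50 ± 0.06 and 0.34 ± 0.07) and not called with total counts (0.05 and -0.11), and Rbm18 was called in opposite directions (0.23 and -0.21). Rbm43, Rbm14 and Rbm4 were not called with TMM (0.07, -0.01 and 0.48), and the first and second were lower with total counts. Rbm14 and Rbm4 are counted above among the tested genes of the spliceosome and splice-site group. Untested for low counts were Rbm20, the splicing regulator of titin in heart, with 1 and 3 counts in M1 and 3 and 9 in M2, Rbm24, a muscle splicing regulator, with 1 and 0 in M1 and 0 and 1 in M2, and Rbm44 and Rbm8a2, with 1 to 6 counts in each library. Rbm46, a germ cell gene, and Rbm31y had no count in any library.

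Nuclear RNA decay was served by 3 members, Rbm7 of the NEXT complex and Rbm26 and Rbm27, which work with the poly(A) tail exosome connection. With TMM all 3 were higher, where 37.5% of all tested genes were, at 0.52 ± 0.06, 0.36 ± 0.06 and 0.52 ± 0.07. With total counts they lay at 0.08, -0.09 and 0.07 and none was called.

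RNA modification and editing set members apart. Rbm15, which recruits the m6A methyltransferase to RNA, had 29.6 and 26.9 CPM in M1 and 17.6 and 16.2 CPM in M2, higher under both scalings (0.75 ± 0.08, edgeR adjusted p 9.63e-07; 0.30 with total counts). Rbm15b, its partner gene in the same role, had 23.5 and 23.5 CPM in M1 and 23.5 and 23.0 CPM in M2 and was not called with TMM (0.02 ± 0.08) but lower with total counts (-0.43). Rbm47, a cofactor of APOBEC1 in C-to-U editing, had 68.1 and 63.1 CPM in M1 and 88.8 and 87.7 CPM in M2 and was lower under both (-0.43 ± 0.06, edgeR adjusted p 1.61e-05; -0.87). Each M1 library was above each M2 library for Rbm15 and below for Rbm47.

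Nucleolar members also parted. Rbm28, the counterpart of a yeast factor for the large ribosomal subunit, had 83.9 and 97.5 CPM in M1 and 53.1 and 54.0 CPM in M2, higher by 0.76 ± 0.07 (edgeR adjusted p 2.23e-07) and by 0.31 with total counts. Rbm19, needed for ribosomal RNA processing, had 18.7 and 20.6 CPM in M1 and 25.7 and 24.7 CPM in M2, lower under both (-0.36 ± 0.08 and -0.81). Rbm34 was not called with TMM (-0.07 ± 0.08) and was lower with total counts (-0.51).

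Rbm3, a cold-induced protein that binds mRNA and acts on translation, was the Rbm gene with the highest TPM in M1. The gene (ENSMUSG00000031167, chrX:8138975-8145880, minus strand, GRCm38) had 275 and 301 CPM in the M1 libraries, against 129 and 148 CPM in the M2 libraries. Both M1 values were above both M2 values, with a log2 fold change of 1.06 ± 0.08 (edgeR adjusted p 1.27e-08) and 0.61 with total counts. Cirbp, the other classic cold-induced RNA-binding gene, had 30.3 and 36.3 CPM in M1 and 22.7 and 24.6 CPM in M2, higher with TMM (0.49 ± 0.09) and at 0.04, not called, with total counts.

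Rbm12 and its relatives gave the widest split among similar genes. Rbm12b2 (chr4:12089439-12096243, plus strand, GRCm38) had 14.5 and 16.7 CPM in M1 and 8.74 and 8.44 CPM in M2, higher by 0.86 ± 0.10 (edgeR adjusted p 2.02e-06) and by 0.41 with total counts. Rbm12b1, its neighbour (chr4:12140264-12146731, plus strand), had 1.96 and 2.44 CPM in M1 and 4.59 and 4.49 CPM in M2, at -1.06 ± 0.17 (edgeR adjusted p 4.45e-05) and -1.50. Rbm12 had 7.41 and 7.76 CPM in M1 and 14.3 and 13.1 CPM in M2, lower by both (-0.85 ± 0.10 and -1.30), and 32.6% of its exon length is shared with Gm28036. Rbm12b2 shares 8.33% of its exon length with Tmem67 on the opposite strand, which libraries without strand cannot separate. Over all libraries Tmem67 had 5208 counts and Rbm12b2 had 1497. The coding sequences of Rbm12b2 and Rbm12b1 matched at 98.1% of 2502 aligned bases in GENCODE on GRCm38, and 56.8% of the 100-base words of Rbm12b2 also occur in Rbm12b1. How reads that fit both genes were counted is not given in the sources used here, so the levels of both are uncertain. The 120 bases where they differ most, with 24 differences in capitals, show where reads can be told apart:
Rbm12b2 coding bases 2196 to 2315: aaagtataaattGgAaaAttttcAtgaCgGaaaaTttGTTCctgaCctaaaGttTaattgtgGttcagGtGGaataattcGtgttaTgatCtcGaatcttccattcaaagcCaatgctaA
Rbm12b1 coding bases 2202 to 2321: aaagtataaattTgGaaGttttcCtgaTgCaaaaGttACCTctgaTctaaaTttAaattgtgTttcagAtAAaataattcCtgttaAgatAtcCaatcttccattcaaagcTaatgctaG

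The ratio of counts between related members within a library is free of library scaling, and 14 pairs were compared without a test, for the same reason as the shares. In 13 of the 14 the ratios of M1 and M2 libraries did not overlap, and in 9 the mean log2 ratio differed by more than 0.5. Of single tested genes 88.5% did not overlap in TMM-normalized level, which is another measure. No share was computed for count ratios of other gene pairs. For Rbm12b2 over Rbm12b1 the ratio was 7.42 and 6.85 in M1, against 1.90 and 1.88 in M2. For Hnrnph2 over Hnrnph1 it was 1.12 and 0.964 in M1 and 0.446 and 0.447 in M2, and these counts are not per length, so the ratio does not say which gene was more abundant. Per length, Hnrnph2 had 137 and 130.4 TPM in M1 and 99.5 and 101 TPM in M2, and Hnrnph1 had 91.3 and 101 TPM in M1 and 167 and 169 TPM in M2. Their coding sequences matched at 85.4% of aligned bases and shared no 100-base word. For Rbm15 over Rbm15b the count ratio was 1.26 and 1.15 in M1 and 0.750 and 0.706 in M2.

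Other pairs had the lower ratio in M1. Srsf9 over Srsf1 stood at 0.363 and 0.363 in M1, against 0.604 and 0.595 in M2. Hnrnpll over Hnrnpl stood at 0.253 and 0.244 in M1, against 0.388 and 0.394 in M2. Both pairs had lower ratios in each M1 library than in each M2 library. Hnrnpul2 over Hnrnpul1, Hnrnpa1 over Hnrnpa3, Hnrnpa1 over Hnrnpa2b1 and Rbm5 over Rbm10 had higher ratios in M1, with log2 differences of 0.56, 0.63, 0.63 and 0.58. Both Hnrnpa1 pairs share 1 gene and are not independent. Smaller log2 differences were those of Srsf4 over Srsf6 at 0.49, Hnrnpdl over Hnrnpd at 0.46, Srsf7 over Srsf3 at 0.20 and Rbm27 over Rbm26 at 0.16. Rbm4b over Rbm4 overlapped between states, with 4.45 and 4.84 in M1 and 3.43 and 5.06 in M2, and its log2 difference of 0.16 was -0.12 without M2 replicate 1. These genes share 33.5% of 100-base coding words, and 60.5% of the exon length of Rbm4 also belongs to Gm21992.

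**Figure D5:**
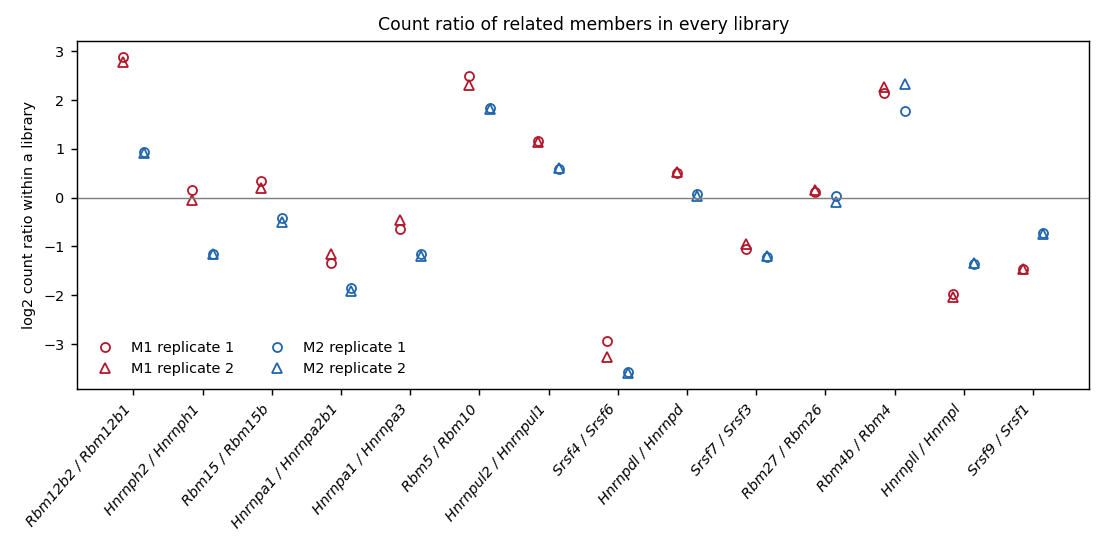
Points give the log2 count ratio of 14 pairs of related members (y axis) in each library, M1 in red left of M2 in blue, with circles and triangles for replicates 1 and 2. The ratio of Rbm12b2 to Rbm12b1 shows the widest gap, Rbm4b to Rbm4 is the overlapping pair, and the pairs at the right, Hnrnpll to Hnrnpl and Srsf9 to Srsf1, have the lower ratio in M1.

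Many of these genes are known to control their own level through transcripts with a premature stop, which are degraded. In GENCODE 9 of 10 tested Srsf, 10 of 20 Hnrnp and 11 of 33 Rbm genes have a transcript annotated for nonsense-mediated decay, or 47.6% of tested members beside 28.5% of 12650 tested protein-coding genes. Retained-intron transcripts are annotated for 69.8% of members and 58.8% of those genes. The deposited counts are per gene and sum all transcripts, so productive and degraded forms were not separated.

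Promoter windows, from 250 bases before to 50 after the gene start, were found in RefSeq (GRCm38.p6) for 59 of the 70 members. A gene with several windows counted once, by its highest CpG ratio and by any motif match. CpG content was high, with a ratio of observed to expected CpG of at least 0.6 in 54 of the 59 members, or 91.5%, beside 74.7% of tested protein-coding genes and 38.4% of all 27025 genes in the table. On both strands, 3 motifs of factors downstream of the stimuli are described. STAT6-type letters, TTC and GAA with 4 bases of any kind between, were found in 3 of the 59 members, beside 8.01% of all genes and 6.69% of tested protein-coding genes. Interferon-response letters, GAAA given 2 times with 2 bases of any kind between, were found in 4 members, beside 3.99% and 4.03%. These were Rbm28 and Rbm41, higher with TMM, Rbm43, not called with TMM, and Rbm31y, which had no count. A kappaB consensus was found in 1 member, Rbm19, beside 0.174% of all genes and 0.241% of tested protein-coding genes. Shown are the windows of the Hnrnp gene with the largest rise and of the Rbm gene with the largest rise among those with a window and at least 1 CPM on average, with motif matches in capitals. Hnrnph2 holds none of the 3, and Rbm28, whose RefSeq start lies 282 bases from its GENCODE start, holds an interferon-response match on the reverse strand:
Hnrnph2, chrX:134600929-134601228, plus strand: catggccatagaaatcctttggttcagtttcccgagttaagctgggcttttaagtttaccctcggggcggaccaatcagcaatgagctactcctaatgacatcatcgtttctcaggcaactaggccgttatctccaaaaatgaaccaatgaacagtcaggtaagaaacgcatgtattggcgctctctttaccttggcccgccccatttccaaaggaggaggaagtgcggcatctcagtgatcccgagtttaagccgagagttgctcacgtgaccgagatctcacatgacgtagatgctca
Rbm28, chr6:29164675-29164974, minus strand: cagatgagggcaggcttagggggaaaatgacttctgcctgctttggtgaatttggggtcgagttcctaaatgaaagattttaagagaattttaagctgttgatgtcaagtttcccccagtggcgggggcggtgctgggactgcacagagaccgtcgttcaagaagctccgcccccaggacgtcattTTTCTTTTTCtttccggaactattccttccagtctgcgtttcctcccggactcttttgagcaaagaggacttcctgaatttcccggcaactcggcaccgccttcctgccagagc
These are letter matches in a fixed window and no binding was measured.

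Other genes of the pathway were listed by role and counted in the same fit. Beside each list stand the shares of all tested genes, 37.5% higher and 39.7% lower with TMM. With total counts those shares are 22.8% and 58.5%. SR protein kinases, phosphatases and import factors had 10 of 17 tested genes higher and 3 lower with TMM, against 3 higher and 9 lower with total counts. Srpk2, a kinase of SR proteins, had 15.0 and 14.0 CPM in M1 and 53.6 and 54.1 CPM in M2, the widest change of the list at -1.89 ± 0.07 (edgeR adjusted p 2.88e-12) and -2.34 with total counts. Its relative Srpk1 had 47.7 and 49.8 CPM in M1 and 54.1 and 54.4 CPM in M2 (-0.15 ± 0.06, edgeR adjusted p 0.0373), a call lost with RLE scaling, with DESeq2 and without M1 replicate 1, M2 replicate 1 or M2 replicate 2. Ppp1cc, a catalytic subunit of protein phosphatase 1, was lower (-0.58 ± 0.06). The nuclear kinases Clk1 and Clk3 were higher with both scalings: Clk1 had 130.1 and 137 CPM in M1 and 71.6 and 75.2 CPM in M2, and Clk3 had 88.6 and 87.6 CPM in M1 and 46.9 and 46.6 CPM in M2. Dyrk2, a kinase of the same larger group, was higher as well (1.10 ± 0.08; 0.65 with total counts).

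SR-related proteins had 20 of 25 genes higher and 1 lower with TMM, and 6 higher and 11 lower with total counts. Tra2a, a splicing activator related to fly transformer-2, had 143 and 158 CPM in M1 and 69.9 and 75.6 CPM in M2 (1.04 ± 0.07; 0.60 with total counts). Rsrc2 and Bclaf1 were also higher under both scalings (0.93 and 0.75 with TMM), and Rsrc1 was the one lower gene (-0.64). Other hnRNP-type and alternative splicing regulators were divided, with 18 of 43 tested genes higher and 15 lower with TMM, and 6 higher and 28 lower with total counts. Rbpms, an RNA-binding regulator of smooth muscle splicing, had 21.5 and 21.9 CPM in M1 and 1.98 and 2.26 CPM in M2 (3.34 ± 0.12, edgeR adjusted p 7.27e-13). Its relative Rbpms2 went the other way, with 0.446 and 0.488 CPM in M1 and 1.53 and 2.08 CPM in M2 (-1.98 ± 0.31). Msi2 and Rbms1 were higher (1.21 and 0.75), and Khdrbs3 and Rbms3 were lower (-4.11 and -2.39), at no more than 4.38 CPM. Khdrbs3 had 9 and 3 counts in M1 and 105 and 202 in M2. It met the low-count filter only through the M2 libraries, so its being tested depended on the higher state.

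Core spliceosome genes, 72 in all, had 37 higher and 15 lower with TMM, and 8 higher and 45 lower with total counts. The share lower with total counts was near the 58.5% of all tested genes. Prpf38a, which takes part in spliceosome activation, had 67.9 and 58.9 CPM in M1 and 20.5 and 21.5 CPM in M2 (1.60 ± 0.08, edgeR adjusted p 6.55e-11; 1.15 with total counts). Snrnp27 of the tri-snRNP and Syf2 were higher (0.81 and 0.78), and Prpf19, Lsm7 and Bcas2 were lower (-0.79, -0.55 and -0.52). Exon junction complex and nonsense-mediated decay genes had 9 of 12 higher and none lower with TMM, and 5 higher and 5 lower with total counts. Magohb, a close paralog of Magoh that also pairs with Y14, had 17.2 and 17.3 CPM in M1 and 3.89 and 4.95 CPM in M2 (1.94 ± 0.12; 1.49 with total counts). Smg1, the kinase of nonsense-mediated decay, had 279 and 227 CPM in M1 and 136 and 132 CPM in M2 (0.92 ± 0.09; 0.47 with total counts).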

How the data were processed

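Poly(A) RNA was sequenced as paired 150-base reads from libraries made with the NEBNext Ultra RNA kit, per the labels' protocols; this kit keeps no strand information. STAR 2.5.2b, Subread 1.5.2 with featureCounts, Trimmomatic 0.36, DESeq and DESeq2 are named beside GRCm38 in the submitters' processing notes. Settings, and the handling of reads that fit several genes, were not given in the sources used here. For each gene, the authors deposited whole-number counts in 4 libraries, with no normalization. Their comparison table carries symbols without gene IDs and was not used here.

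Gene IDs were matched to GENCODE vM21 (GRCm38), and 49056 of 49315 had a symbol. One model over all genes was fitted with edgeR 4.0.16 in R 4.3.3: filterByExpr (count 10, total 15), TMM, a robust quasi-likelihood fit and a two-sided F test, with Benjamini-Hochberg adjustment over 14656 genes and calls at an adjusted p under 0.05. SEs were derived from the fold change and F. The common biological coefficient of variation was 0.0528. The fit was also run on simulated counts in which a small part of the genes changed. Since most genes differ in these data, that run does not bear on the choice of scaling. Alternatives were total-count, RLE and upper-quartile scaling, no filter, a filter of 5 CPM in 2 libraries, DESeq2 1.42.0 and each library left out. Log counts correlated at 0.994 within M1, 0.996 within M2 and 0.819 to 0.822 between them. Intervals and limits cover counting error only, since reads without molecular identifiers are not independent molecules.

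Named members averaged at least 1 CPM and had the largest called changes each way, up to 6 for Rbm and 4 for Srsf and Hnrnp; from each other list up to 3 each way were named, and Rbm11 and Rbm42, under 1 CPM, Cirbp and the remaining members were added by role or after their values were seen. The members, gene lists and pairs were chosen with earlier results of these data known. Some results from the motif search and the gene lists are not reported here.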

Additional observations from a re-analysis of the deposited data

How the results depend on the processing

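Besides the reported setting, 10 others were tried for each count of calls, the median and 48 named genes, which were 23 members and 25 genes of the other lists. Total-count scaling moved the counts of members higher to 9 and lower to 31 (Srsf 1 and 6, Hnrnp 2 and 15, Rbm 6 and 10), and it turned the median log2 fold change of members to -0.17 and that of Srsf3 to -0.10. Upper-quartile scaling gave 21 members lower, 3 of them Srsf and 13 Hnrnp, and a median of 0.10. Srsf genes lower in M1 numbered 1 to 2 when each library was left out in turn. With total counts Srsf7, Srsf4, Hnrnpa1, Hnrnpul2 and Rbm4b kept their sign and lost their call. The log2 ratio difference of Rbm4b to Rbm4 ran from -0.12 to 0.44 and the difference in the percent of counts on Rbm genes from -0.0038 to 0.0071 with each library left out, with -0.00012 without M2 replicate 1; these 2 measures and their settings were chosen after seeing the data. The cause was not tested for any of these, beyond the shift that total-count scaling gives every gene.

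No paired analysis was possible because the labels carry no replicate numbers, and those used here follow accession order. With 2 libraries per state, the tests rest on a spread shared across genes. Which scaling fits these cells cannot be told from counts without an outside standard. Counts per gene hold no information on splicing itself.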

Other observations

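Replicates of one state differed by little for members of at least 5 CPM. Replicate 2 was above replicate 1 for 39 of 59 such members in M1, by a median of 0.04 on the log2 scale, and for 42 of 59 in M2, by 0.03. Among all tested genes of at least 5 CPM it was above for 4095 of 9037 in M1, with a median of -0.02, and for 4739 of 9473 in M2, with a median of 8.5e-05. Of the Srsf genes, 9 of 10 in M1 and 10 of 10 in M2 were above in replicate 2. The replicate numbers follow accession order and pair nothing between states.

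Exon overlap with other genes touched many members. Of the 70 genes, 31 shared at least 1 exonic base with another annotated gene, and 12 shared at least 10% of their exon length with one. Among abundant members, Hnrnpab shared 29.1% with Phykpl and Srsf2 shared 15.6% with Mettl23, both on the opposite strand, and reads from such pairs cannot be told apart in these libraries.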
